A study of Homo sapiens with 2 samples.

Results

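The genes described here are 34 genes of the unfolded protein response and the integrated stress response, compared between the human lung cancer lines MTAC-P and PC9. They were chosen by symbol: every row of both transcript tables whose gene column equals 1 of the 34 symbols was taken, and the values of a symbol were summed. Of the 34 genes, 32 had a row, out of 30843 symbols in all. MANF and CHAC1 had none, since the tables stop at transcript number 437205 and the transcripts of both genes have later numbers, so these genes were not analysed here. MTAC-P was derived from PC9 and is resistant to EGFR tyrosine kinase inhibitors, per the labels, which do not say how it was obtained. PC9 is a lung adenocarcinoma line with an activating EGFR deletion. Both lines grew in DMEM with fetal bovine serum, per the labels' protocols, which name no inhibitor at harvest, no dose and no clone. Each line had 1 library of RNA, so replicate spread is unknown, and no SD or p-value is given.

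The unfolded protein response is the reaction of a cell to misfolded protein in the endoplasmic reticulum (ER). The sensors IRE1 (gene ERN1), PERK (EIF2AK3) and ATF6 in the ER membrane start it. IRE1 cuts the XBP1 mRNA and so gives rise to an active transcription factor. ATF6 is released from the membrane as a factor that switches on chaperone genes. PERK phosphorylates the initiation factor eIF2, which slows translation in general and raises that of the factor ATF4. Other kinases act on eIF2 when amino acids are scarce, and the ATF4 programme they share is called the integrated stress response. Secretory epithelial cells and tumour cells use both programmes to balance protein load against folding capacity.

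Values are FPKM, fragments scaled to the length of the transcript and to the mapped fragments of the library, as taken from the authors' tables. Levels can be compared between genes only roughly, since 12 of the 32 listed genes had all their GENCODE coding transcripts listed. Rankings by level are therefore of listed values. The difference between the lines is given as a log2 ratio, the log2 of MTAC-P + 1 over PC9 + 1. All 32 listed genes reached the minimum mean of 1 FPKM over both libraries, and 25 of them had a mean of at least 5. Listed values summed to 685082 FPKM in MTAC-P and 693444 in PC9, of which 20.3% in MTAC-P and 23.5% in PC9 was mitochondrial. Read numbers behind the values are unknown, and in bulk RNA fewer expressing cells and less RNA per cell cannot be told apart. The epithelial markers EPCAM, CDH1, KRT8, KRT18, KRT19 and CLDN4 were all at 35 FPKM or more in both libraries. The 6 blood cell markers summed to 1.15 FPKM in MTAC-P and 2.15 in PC9, the 4 fibroblast markers to 2.31 in MTAC-P and 1.94 in PC9, and the endothelial markers CDH5 and VWF to 4.18 in MTAC-P and 3.40 in PC9.

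Most stress response genes stood within 2-fold of each other in the lines, with more above 0 than below. Of the 32 genes, 21 had a log2 ratio above 0 and 11 below, and the median was 0.12. Over all 11435 genes compared, 47.6% lay above 0 and the median was -0.02. XBP1 and STC2 were higher in MTAC-P by 2-fold or more, which is 2 of 32, where 3.48% of all genes compared were higher by that much. At that percentage 1.11 of 32 genes would be counted, so 2 is close to the background. The log2 ratio of XBP1 was 0.96 to 0.98, under 2-fold, with a pseudocount of 5, equal upper quartiles or scaling without mitochondrial genes. It was -0.17 with the most abundant transcript only, which was chosen by the sum over both libraries and is XBP1-201. In MTAC-P alone XBP1-204 stood higher, at 46.9 FPKM against 38.3 for XBP1-201. The log2 ratio of STC2 was 0.89 with a pseudocount of 5. None of the 32 was lower by 2-fold or more, against 4.29% of all genes, so that 7.77% of all genes passed 2-fold in either direction. The sensors and transcription factors had the highest median (0.45), followed by the ATF4 and stress-effector targets (0.29), the chaperones and folding enzymes (0.13) and the genes of ER-associated degradation (-0.12). With only those genes that had every GENCODE coding transcript listed, the median of the chaperones was 0.46 (5 genes) and that of the ATF4 targets 0.09 (3 genes), which turns their order round and puts the chaperones just above the sensors and factors (0.45, 4 genes). With the most abundant transcript only, the median of the sensors and factors was 0.22 and that of the ATF4 targets 0.27, so the first place of the sensors and factors did not hold under either setting.

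**Figure D1:**
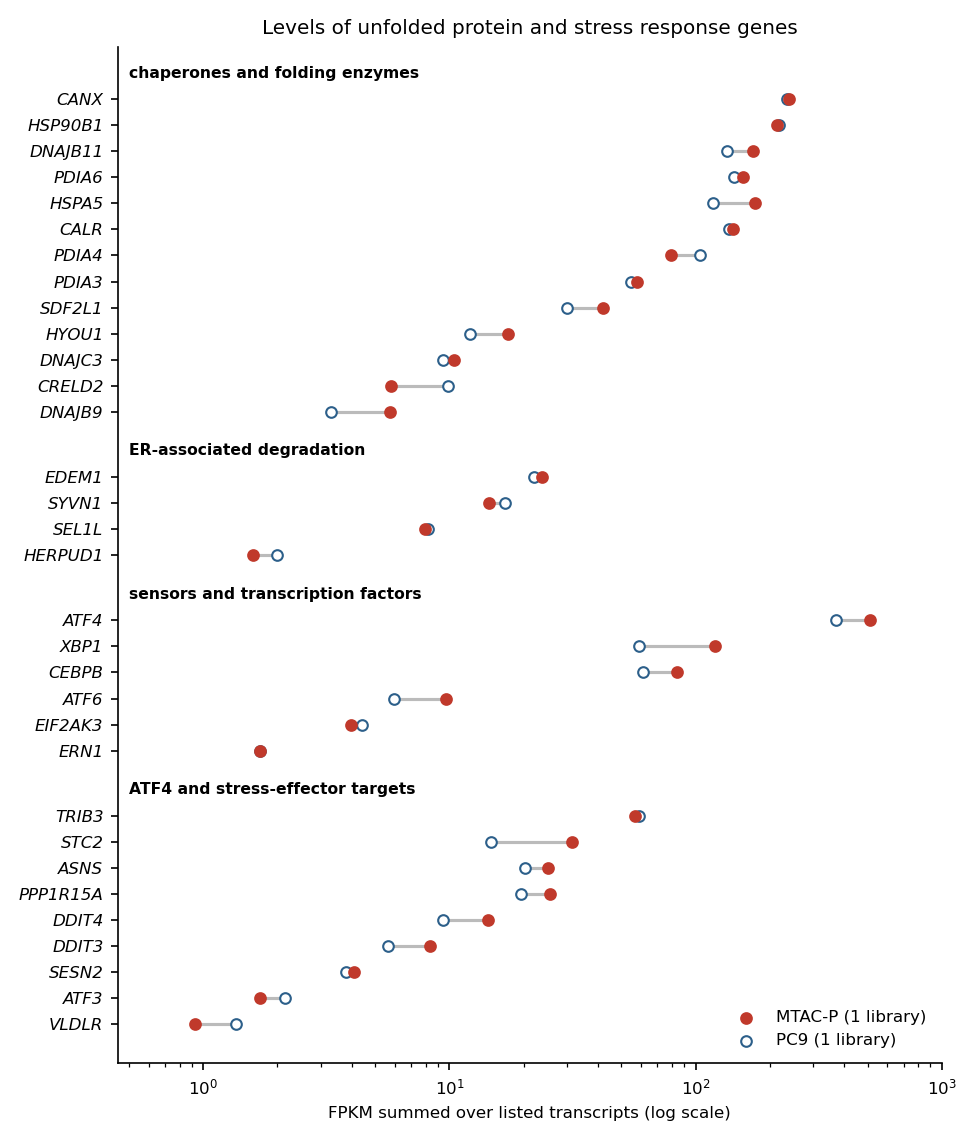
Levels of the 32 listed genes in FPKM on a log axis, grouped by role and ordered by mean level. Filled points are the MTAC-P library and open points the PC9 library. ATF4 stands highest in both, and the gaps between the points of XBP1 and STC2 are the widest upward ones.

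Among the sensors, ATF6 differed most between the lines. ATF6 stood at 9.66 FPKM in MTAC-P and 5.96 in PC9, a log2 ratio of 0.62, and 8.24% of all genes compared had a ratio as high. It rests on a single listed transcript, which is the only coding one in GENCODE release 29. ERN1 stood at 1.69 FPKM in MTAC-P and 1.70 in PC9, so the mRNA of IRE1 was at the same low level in both libraries. EIF2AK3 stood at 3.98 FPKM in MTAC-P and 4.40 in PC9, a log2 ratio of -0.12. Its total was thus near equal, but its transcripts were not. EIF2AK3-201, the full-length form that GENCODE marks as principal, stood at 1.21 FPKM in MTAC-P and 4.40 in PC9. EIF2AK3-203 stood at 2.71 FPKM in MTAC-P and was listed at 0 in PC9. In GENCODE its first exon (chr2:88624746-88624929, minus strand) does not overlap that of EIF2AK3-201 (chr2:88626967-88627576). The value of EIF2AK3 was thus assigned mainly to models with different first exons in the 2 libraries.

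XBP1 encodes the transcription factor that IRE1 activates. Its listed transcripts summed to 119.8 FPKM in MTAC-P and 59.0 in PC9, a log2 ratio of 1.01, and 3.39% of all genes compared had a ratio as high. The gene lies at chr22:28794555-28800597 on the minus strand (GENCODE release 29, GRCh38). The difference was not spread over its 5 listed transcripts. XBP1-201, the principal form, stood at 38.3 FPKM in MTAC-P and 43.3 in PC9. XBP1-202 stood at 26.9 FPKM in MTAC-P and 3.87 in PC9. XBP1-204 stood at 46.9 FPKM in MTAC-P and 2.39 in PC9. The principal form was thus slightly lower in MTAC-P, and the higher total came from the other pair. XBP1-204 starts from another first exon (chr22:28799960-28800133). Without it the log2 ratio of XBP1 was 0.36.

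XBP1-202 is the form that lacks the short segment removed by IRE1, and the sequences below show it beside the uncut form. The segment has 26 nucleotides inside the exon that XBP1-201 keeps whole, and its removal changes the reading frame and gives the longer, active protein. GENCODE places it at chr22:28796122-28796147 (minus strand) in XBP1-202. In the other GENCODE transcript without the segment it lies at chr22:28796124-28796149. The bases CA come just before the XBP1-202 placement and also end it, so both placements give the same joined sequence. The joined sequence therefore does not show which placement is that of the cuts by IRE1. Capitals mark the segment as placed in XBP1-202, with 24 bases on each side, from the GENCODE release 29 transcripts.
XBP1-201: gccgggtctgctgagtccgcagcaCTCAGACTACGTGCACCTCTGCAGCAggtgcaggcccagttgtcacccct
XBP1-202: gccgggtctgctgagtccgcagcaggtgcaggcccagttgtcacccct
XBP1-202 made up 22.4% of the XBP1 value in MTAC-P and 6.56% in PC9. GENCODE holds 2 XBP1 transcripts without the segment, of which 1 was listed. XBP1-202 has 1131 nucleotides and XBP1-201 has 1850, so they differ in more than the segment, and reads that lie outside it were divided between them by the authors' software. The tables give no reads across the join, so the share of cut mRNA was not measured directly. Which reads led to the values of XBP1-202 was not tested.

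ATF4 was the most abundant of the 32 genes in both libraries. It stood at 511 FPKM in MTAC-P and 372 in PC9, a log2 ratio of 0.45. Nearly all of it came from ATF4-202, which stood at 501 FPKM in MTAC-P and 362 in PC9. The make-up of its transcripts was the same in both libraries to within 0.887 percentage points. CEBPB, a leucine zipper factor that can pair with ATF4, stood at 83.8 FPKM in MTAC-P and 61.0 in PC9, also a log2 ratio of 0.45. Both genes had all their GENCODE coding transcripts listed. ATF4 has near-identical pseudogenes, of which the 3 listed were each below 0.1 FPKM in both libraries. ATF4 is controlled mainly through translation, and these values are of mRNA only.

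**Figure D2:**
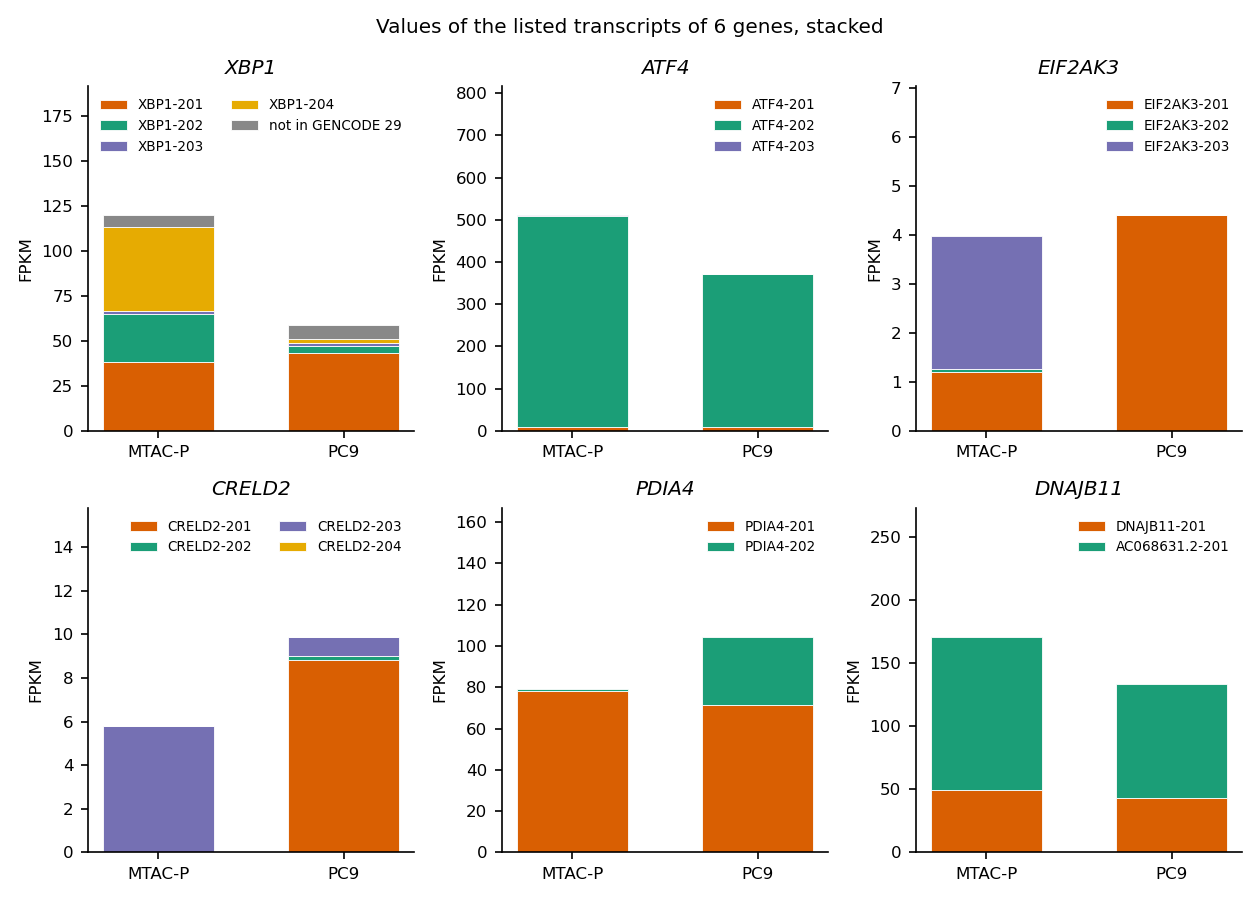
Stacked FPKM of the listed transcripts of XBP1, ATF4, EIF2AK3, CRELD2, PDIA4 and DNAJB11, with MTAC-P on the left and PC9 on the right of each panel. XBP1-202 and XBP1-204 make up most of the difference of XBP1, while EIF2AK3 and CRELD2 have different leading transcripts in the 2 libraries.

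The chaperones and folding enzymes ranged from -0.68 in CRELD2 to 0.65 in DNAJB9 on the log2 scale. Of 13 chaperones and folding enzymes listed, 10 had a log2 ratio above 0 and none reached 2-fold. Their values summed to 1315 FPKM in MTAC-P and 1207 in PC9. HSPA5, the HSP70 chaperone BiP of the ER, stood at 174 FPKM in MTAC-P and 117 in PC9, a log2 ratio of 0.57, and 9.40% of all genes had a ratio as high. HYOU1, a large HSP70-like protein that exchanges the nucleotide of BiP, stood at 17.3 FPKM in MTAC-P and 12.1 in PC9 (0.49). DNAJB9, a J-domain partner of BiP, stood at 5.74 FPKM in MTAC-P and 3.31 in PC9 (0.65). This was the highest log2 ratio among the chaperones. SDF2L1, which works with BiP and its J-domain partners, stood at 42.0 FPKM in MTAC-P and 30.2 in PC9 (0.46). DNAJC3, a J-domain partner that also restrains eIF2 kinases, stood at 10.4 FPKM in MTAC-P and 9.39 in PC9 (0.14). The HYOU1 transcript is not in GENCODE release 29, and the principal transcript of DNAJC3 was not listed.

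DNAJB11, another J-domain partner of BiP, summed to 171 FPKM in MTAC-P and 134 in PC9 (0.35). Of this, 121 FPKM in MTAC-P and 90.3 in PC9 came from 1 transcript that GENCODE places under a neighbouring gene, AC068631.2. DNAJB11-201 itself stood at 49.7 FPKM in MTAC-P and 43.5 in PC9. The value under the DNAJB11 symbol is thus mainly that of a transcript whose gene is uncertain.

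The lectin chaperones and HSP90B1 differed least. CANX, calnexin, was the most abundant chaperone at 239 FPKM in MTAC-P and 235 in PC9 (0.02). HSP90B1, the HSP90 of the ER, stood at 214 FPKM in MTAC-P and 218 in PC9 (-0.02). CALR, calreticulin, stood at 143 FPKM in MTAC-P and 136 in PC9 (0.06). PDIA3, the disulfide isomerase that works with both lectins, stood at 57.8 FPKM in MTAC-P and 54.7 in PC9 (0.08), and PDIA6 at 156 FPKM in MTAC-P and 143 in PC9 (0.13). For PDIA3, 92.1% of the value in either library sat on a transcript that GENCODE types as nonsense-mediated decay.

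PDIA4 and CRELD2 stood lower in MTAC-P, and for both the transcripts have to be read apart. PDIA4, a disulfide isomerase, stood at 79.3 FPKM in MTAC-P and 104 in PC9 (-0.39). Its full-length form PDIA4-201 stood at 78.3 FPKM in MTAC-P and 71.4 in PC9, while PDIA4-202, an incomplete model of 550 nucleotides, stood at 0.964 FPKM in MTAC-P and 33.0 in PC9. The lower sum of PDIA4 is therefore that of the short model, and the full-length form was slightly higher. CRELD2, an ER stress-inducible secreted factor, stood at 5.78 FPKM in MTAC-P and 9.89 in PC9 (-0.68), and 8.78% of all genes had a ratio as low. CRELD2-203 stood at 5.78 FPKM in MTAC-P and 0.84 in PC9. CRELD2-201, the principal form, stood at 0.0034 FPKM in MTAC-P and 8.81 in PC9.

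A change in make-up as large as that of CRELD2, EIF2AK3 or XBP1 was uncommon among all genes. The measure was the part of a gene's value that would have to move between its transcripts to turn the make-up of the MTAC-P library into that of PC9. It was chosen after the values were seen. It was 91.4 percentage points for CRELD2, 69.6 for EIF2AK3, 55.4 for ATF3 and 50.9 for XBP1. The median over 7369 genes with several listed transcripts was 10.3 points. As large a shift as that of CRELD2 was found in 0.285% of those genes, of EIF2AK3 in 2.06%, of ATF3 in 4.55% and of XBP1 in 5.70%. These were the largest shifts among the 16 genes described here with several listed transcripts. VLDLR (37.3 points), PDIA4 (30.4) and SYVN1 (13.4) also lay above the median. ASNS, HERPUD1, DNAJB11, ATF4, TRIB3, PDIA6, CANX, PDIA3 and EDEM1 lay below it. HSPA5, STC2, ATF6 and 13 more of the 32 genes had 1 listed transcript and no such measure. Low values divide between transcripts with more error, and EIF2AK3 and ATF3 were below 5 FPKM in both libraries.

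Several chaperone genes share a sequence just before their start that is a known site of this response. The genes were chosen by symbol as known members of the response, so finding the site among them is not independent evidence. The ER stress response element, CCAAT and CCACG with 9 unspecified bases between them, is the known site of ATF6 together with the factor NF-Y. It was searched on both strands of the RefSeq promoter windows (GRCh38.p14), which run from 250 bases before to 50 bases after each start, and 33 of the 34 genes had a window. The element was found in 9 of the 46 windows of these genes, which belong to CALR, CANX, CRELD2, HSP90B1, HSPA5, PDIA6 and XBP1, so in 7 genes. Of all 35116 windows 0.0769% held it. The sites follow on the strand of the gene, with the bases that the element fixes in capitals. Those of CALR, CRELD2 and the second of HSP90B1 are in the reverse direction.
HSPA5: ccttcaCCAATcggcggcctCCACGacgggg
XBP1: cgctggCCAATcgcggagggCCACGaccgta
PDIA6: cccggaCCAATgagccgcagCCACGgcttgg
CANX: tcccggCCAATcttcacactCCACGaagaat
HSP90B1: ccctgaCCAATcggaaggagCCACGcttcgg
HSP90B1: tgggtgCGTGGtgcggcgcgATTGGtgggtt
CALR: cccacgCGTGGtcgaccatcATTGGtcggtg
CRELD2: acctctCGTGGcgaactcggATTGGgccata
The first base of the site lay 66 bases before the start in HSPA5 (chr9:125241391-125241409, minus strand), 52 in XBP1 (chr22:28800603-28800621, minus strand) and 80 in CRELD2 (chr22:49918554-49918572, plus strand). The 7 genes did not stand together in expression. Their log2 ratios ran from -0.68 in CRELD2 to 1.01 in XBP1, with a median of 0.06, 5 above 0 and 2 below.

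The 250 bases before the start of HSPA5 (chr9:125241344-125241593) and of XBP1 (chr22:28800570-28800819), both on the minus strand, show the element in its setting, again in capitals. They are the chaperone and the factor with the largest differences in FPKM among the 7 genes.
HSPA5: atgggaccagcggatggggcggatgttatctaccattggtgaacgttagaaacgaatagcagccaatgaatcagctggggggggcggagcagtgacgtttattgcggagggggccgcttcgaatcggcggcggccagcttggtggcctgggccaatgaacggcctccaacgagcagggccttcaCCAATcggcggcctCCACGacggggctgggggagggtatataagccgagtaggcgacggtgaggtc
XBP1: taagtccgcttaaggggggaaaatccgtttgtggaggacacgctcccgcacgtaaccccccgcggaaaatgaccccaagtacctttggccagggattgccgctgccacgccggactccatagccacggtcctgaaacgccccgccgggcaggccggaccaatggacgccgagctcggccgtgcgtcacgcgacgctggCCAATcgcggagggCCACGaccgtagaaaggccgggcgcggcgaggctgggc
A second form of the element, ATTGG and CCACG with 1 unspecified base between them, was added to the search after the first was seen. It was found in 3 of the 46 windows, those of HERPUD1, HYOU1 and SDF2L1, and in 0.0541% of all windows. TGACGTGG, the core of the XBP1 and ATF6 sites, was found in 1 of the 46 windows, that of HYOU1, where it overlaps the second form, and in 0.729% of all windows. The short CCACG, which lies inside both forms, was in 32 of the 46 windows (25 of the 33 genes) and in 38.1% of all windows. A match is a run of letters and not a bound site.

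The 4 genes of ER-associated degradation, which sends misfolded protein to the proteasome, were near equal. EDEM1, which directs glycoproteins to disposal, stood at 23.8 FPKM in MTAC-P and 22.1 in PC9 (0.11). SEL1L, the adaptor of the ubiquitin ligase SYVN1, stood at 7.96 FPKM in MTAC-P and 8.15 in PC9 (-0.03). SYVN1 itself stood at 14.5 FPKM in MTAC-P and 16.8 in PC9 (-0.20). HERPUD1, a scaffold of that ligase and a known target of the response, stood at 1.60 FPKM in MTAC-P and 1.99 in PC9 (-0.20). Of these, 1 of 4 lay above 0. The principal HERPUD1 transcript was not listed, so the level of HERPUD1 is that of its other forms only.

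**Figure D3:**
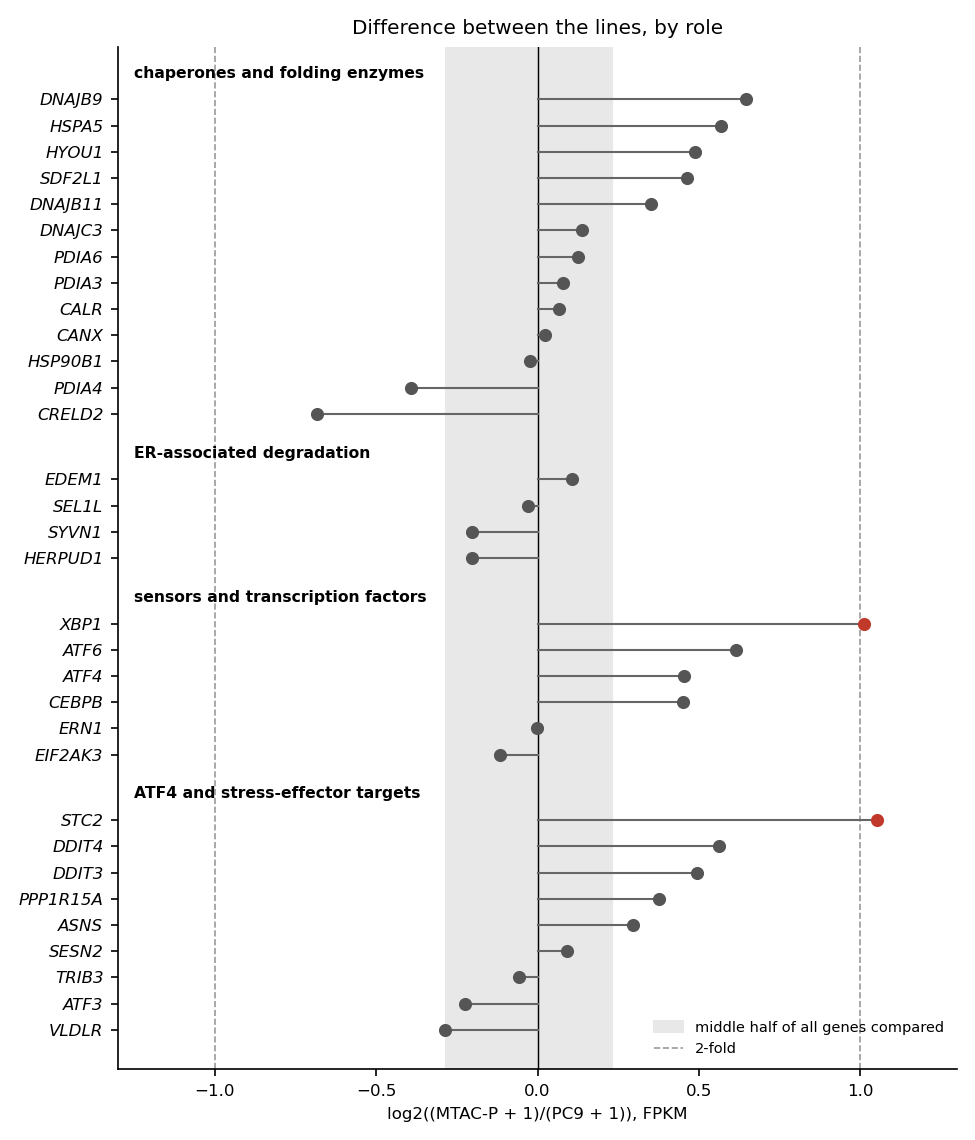
Log2 ratio of each of the 32 genes by role, with the interquartile range of all 11435 genes compared in grey (-0.29 to 0.23) and dashed lines at 2-fold. XBP1 and STC2 lie just beyond the upper dashed line, and CRELD2 is the lowest at -0.68.

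Of the 9 listed targets of ATF4 and stress effectors, 6 stood above 0 and 1 reached 2-fold. STC2, the secreted glycoprotein stanniocalcin 2, stood at 31.6 FPKM in MTAC-P and 14.7 in PC9, a log2 ratio of 1.05. This was the highest of all 32, and 3.13% of all genes compared had a ratio as high. It comes from STC2-201, the principal transcript, on chromosome 5. DDIT4, an inhibitor of mTORC1, stood at 14.3 FPKM in MTAC-P and 9.39 in PC9 (0.56). VLDLR, a lipoprotein receptor that PERK and ATF4 can induce, was low, at 0.927 FPKM in MTAC-P and 1.35 in PC9 (-0.29). These 3 genes are also known to respond to low oxygen. Of 12 hypoxia genes, 7 stood above 0, with a median of 0.05. CA9 (0.378 FPKM in MTAC-P, 1.97 in PC9) and EGLN3 (1.37 in MTAC-P, 4.0 in PC9) were at least 2-fold lower. That is 2 of 12, where 4.29% of all genes compared were lower by that much. CA9 had a mean of 1.17 FPKM, just above the minimum. The part of the hypoxia genes in the values of STC2 and DDIT4 was not tested.

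The classical stress factors and feedback genes stayed within 2-fold. DDIT3, which encodes the proapoptotic factor CHOP, stood at 8.34 FPKM in MTAC-P and 5.62 in PC9 (0.50). PPP1R15A, the GADD34 subunit that directs a phosphatase to eIF2 and so ends the block of translation, stood at 25.7 FPKM in MTAC-P and 19.5 in PC9 (0.38). TRIB3, a pseudokinase that restrains ATF4, stood at 56.5 FPKM in MTAC-P and 58.9 in PC9 (-0.06). DDIT3 and PPP1R15A thus stood higher and TRIB3, the most abundant target, did not. SESN2, a leucine sensor upstream of mTORC1, stood at 4.10 FPKM in MTAC-P and 3.79 in PC9 (0.09). ATF3, a repressor induced by many stresses, stood at 1.69 FPKM in MTAC-P and 2.15 in PC9 (-0.22). At such levels the pseudocount of 1 draws the ratio towards 0.

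ASNS, asparagine synthetase, is the textbook gene of the amino acid response, and it stood at 25.1 FPKM in MTAC-P and 20.2 in PC9 (0.29). ASNS-202 carried 86.6% of it in MTAC-P and 95.5% in PC9. Its promoter holds the C/EBP-ATF element to which ATF4 binds, TGATGNAAN, with its first base 68 bases before the start. The 250 bases before the start (chr7:97872409-97872658, minus strand) are shown with the fixed bases of the element in capitals.
ASNS: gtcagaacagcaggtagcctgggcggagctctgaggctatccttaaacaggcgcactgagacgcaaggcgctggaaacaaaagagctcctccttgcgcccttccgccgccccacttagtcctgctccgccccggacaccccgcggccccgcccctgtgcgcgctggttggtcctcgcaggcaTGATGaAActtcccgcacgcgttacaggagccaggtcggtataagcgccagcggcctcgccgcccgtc
The same letters were found, in either direction, in the windows of ATF3, HERPUD1 and CHAC1, so in 4 of the 46 windows and 4 of 33 genes, and in 3.61% of all windows. Of the 3 of these with values, ASNS stood above 0 and ATF3 and HERPUD1 below.

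Other genes of the same pathways were taken as whole lists, though with earlier results of these data known. Their medians were -0.03 for the folding genes and 0.14 for the eIF2 and ATF4 genes. Of 37 other ER folding and quality-control genes compared, 18 stood above 0 and 19 below, and none reached 2-fold. The highest with a mean of at least 5 were EDEM3 (0.63), UBE2J1 (0.45) and DNAJC10 (0.38). The lowest were FKBP14 (-0.77), SSR1 (-0.77) and SEC63 (-0.30). EDEM3, a mannosidase of the same family as EDEM1, stood at 8.29 FPKM in MTAC-P and 5.02 in PC9. FKBP14, a prolyl isomerase, stood at 9.34 FPKM in MTAC-P and 16.6 in PC9.

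Of 42 other integrated stress response genes compared, 29 stood above 0 and 13 below. At 2-fold or more, 1 was higher and 1 was lower, where 3.48% of all genes compared were higher and 4.29% lower. EIF2B4, a subunit of the exchange factor that eIF2 phosphorylation blocks, stood at 12.55 FPKM in MTAC-P and 5.64 in PC9 (1.03). Of its 6 coding transcripts, 1 was listed. All 5 subunits of that factor stood above 0, from EIF2B2 (0.19) to EIF2B4. EIF4EBP1, an ATF4 target that represses translation, stood at 23.1 FPKM in MTAC-P and 57.8 in PC9, a log2 ratio of -1.29. Of the other eIF2 kinases, EIF2AK2, the double-stranded RNA sensor PKR, stood at 79.7 FPKM in MTAC-P and 51.9 in PC9 (0.61). EIF2AK1, the haem-regulated kinase, stood at 119 FPKM in MTAC-P and 141 in PC9 (-0.24), and EIF2AK4, the amino acid sensor GCN2, at 8.86 FPKM in MTAC-P and 8.10 in PC9 (0.12). All 3 were more abundant than EIF2AK3 in either library, and the 4 kinases differed between the lines in both directions.

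**Figure D4:**
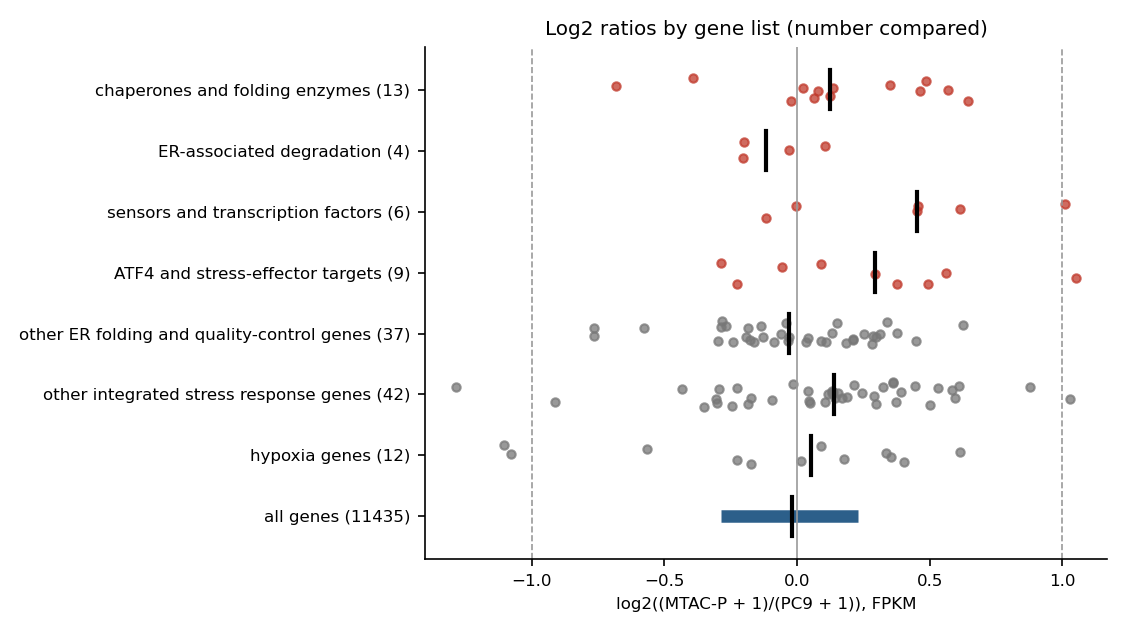
Log2 ratios of the genes of each list, with the number compared in brackets. Points are genes (red for the 32 genes described here, grey for other genes of the pathways and for the hypoxia genes). Black bars are medians, and the blue bar is the interquartile range of all genes. As plotted, the sensors and factors have the highest median (0.45), a place they lose with the most abundant transcript only (0.22) and with all coding transcripts listed, and the degradation genes have the lowest (-0.12).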

How the data were processed

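Trim Galore, TopHat, Cufflinks and build hg38 are named, without versions or settings, in the submitters' processing notes. No annotation release is named there. The values that the authors deposited, 1 for each transcript, were read as FPKM because Cufflinks is named; the tables name no unit and hold no counts or intervals. Each table has 65536 lines, a spreadsheet limit, and later transcripts were not analysed here. Triplicates are mentioned in the design text, yet 1 column of values was used for each line. Values were summed per symbol with pandas 2.3.3 (Python 3.11.15), with a pseudocount of 1, a minimum mean of 1 and a limit of 2-fold. The summing and the ratio, but no other step, were run on simulated data without noise, which checks the code only. Transcript names, types and coordinates are from GENCODE release 29 (GRCh38, the assembly hg38 names), which held 64 of the 68 rows. Promoters are RefSeq's. The genes, lists and measures were chosen with earlier results of these data known. All 32 listed genes are named; of the further lists, those at 2-fold, or else the 3 highest and 3 lowest at a mean of at least 5, and in places others chosen after their values were seen, such as the eIF2 kinases and the EIF2B subunits. Protein sequences were not used here.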

Additional observations from a re-analysis of the deposited data

How the results depend on the processing

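No paired analysis was possible because there is 1 library of MTAC-P and 1 of PC9, and none could be left out. The share of all genes higher or lower was counted only at the main setting, so the counts under other settings have no background. The 2 genes at 2-fold or more higher became 0 with a pseudocount of 5 and 1 with equal upper quartiles. The count was 1 with the same sum without mitochondrial genes, 1 with the most abundant transcript only and 4 at 1.5-fold. It was 0 with all coding transcripts listed, because that setting leaves out both XBP1 and STC2. The count at 2-fold or more lower was 0, and became 2 with the most abundant transcript only (EIF2AK3 -1.29 and CRELD2 -3.29) and 1 at 1.5-fold. That transcript was chosen by the sum over both libraries. For EIF2AK3, CRELD2 and XBP1 it led in PC9, while another transcript led in MTAC-P. XBP1 stood at 0.96 with a pseudocount of 5, 0.98 with equal upper quartiles and 0.97 without mitochondrial genes, and turned to -0.17 with its most abundant transcript only, which leaves out XBP1-202 and XBP1-204. STC2 stood at 0.89 with a pseudocount of 5. At a mean of at least 5, the median of all listed genes was 0.29 and that of the ATF4 targets 0.44. With the most abundant transcript only, the median of the sensors and factors was 0.22. With all coding transcripts listed, the medians were 0.45 for all (12 genes), 0.46 for chaperones, 0.090 for ATF4 targets and 0.37 for other integrated stress response genes; this setting keeps fewer genes. Of 94 list medians under alternatives, 87 moved by less than 0.1 and 7 by more; the median of the other ER folding genes, near 0, ran from -0.07 to 0.03. Of 355 single-gene values, 348 kept their side of 2-fold, and the rest were of XBP1, STC2, EIF2AK3 and CRELD2. Settings that only filter genes cannot change a single-gene value, and the protein_coding biotype setting changed none. Most genes also started well under 2-fold, so this count says little about how stable the ratios are. Summing only transcripts that are coding in GENCODE was added after seeing the data. Depth is unknown, so no precision can be given for low values.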

Other observations

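Aminoacyl-tRNA synthetases, many of which ATF4 induces, and the machinery that brings proteins into the ER were listed after the data were seen. Both lists share genes with the lists above, such as SARS and TARS, or SEC61A1 and SSR1, so they are not independent of them. Of 20 cytoplasmic synthetase genes, 14 stood above 0 in MTAC-P against PC9, with a median log2 ratio of 0.05 and none at 2-fold. SARS stood at 86.9 FPKM in MTAC-P and 57.2 in PC9 (0.59), TARS at 9.80 FPKM in MTAC-P and 19.3 in PC9 (-0.91), and LARS at 14.1 FPKM in MTAC-P and 25.9 in PC9 (-0.83). The genes thus went both ways.

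Of 26 genes of the oligosaccharyltransferase, the translocon and the signal peptidase, 15 stood above 0, with a median of 0.05. SEC11C, a catalytic subunit of the signal peptidase, was the 1 gene at least 2-fold higher, at 14.7 FPKM in MTAC-P and 4.07 in PC9 (1.63), from no transcript that GENCODE types as coding. Of all genes compared, 3.48% were higher by 2-fold or more. SEC61G, a translocon subunit, was the most abundant at 3421 FPKM in MTAC-P and 2964 in PC9 (0.21).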
